A study of Mus musculus with 12 samples.

Results

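Chil3, Gpnmb, Trem2, Itgam, Itgax, Ccr2, Ly6c2, Lgals3, Cd68 and Lyz2 are 10 genes used to recognise monocytes that have entered a tissue and macrophages that have taken up lipid. They were picked by gene symbol from the deposited tables of 57180 genes, and each symbol matched 1 row. All 10 had enough reads to be tested, as did 19350 genes in all. The values come from bulk RNA-seq of livers from 12 mice, with 3 females and 3 males in each of the KO and Het groups. Every mouse lacked Csa (Csa-/-), the gene of a transcription-coupled DNA repair factor, and had received AAV9-CSA, a vector in which the ubiquitous CBA promoter drives a human CSA cDNA, injected into the cerebral ventricles as a newborn. KO livers were taken at the humane endpoint, when the mice were hunched and trembling, and Het livers came from littermates of the same age that had no signs of disease. The age of each mouse is not given in the sources used here. The labels write KO as Csa-/-;Xpa+/+ and Het as Csa-/-;Xpa+/-, whereas the paper's results describe the diseased animals as Csa-/- Xpa-/-, so the groups are called KO and Het here. Genotype and terminal illness cannot be told apart in this design. Whole liver was sequenced, so fewer cells of a type and less RNA per cell cannot be told apart either.

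The liver has its own macrophages, the Kupffer cells, which are seeded early in life and line the sinusoids. When they are lost or the tissue is injured, monocytes enter from the blood and turn into macrophages. Classical mouse monocytes carry CCR2, the receptor for the chemokine CCL2, and the surface antigen Ly6C, and lose both as they mature. Macrophages that clear lipid and dead cells switch on TREM2, a receptor for lipids and apoptotic cells, together with GPNMB and galectin-3, and in fatty or injured liver such cells are known as lipid-associated macrophages. CD68, lysozyme and the integrin chains CD11b (Itgam) and CD11c (Itgax) are shared more widely among myeloid cells.

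The promoters of Gpnmb, Trem2 and Chil3 are shown because these members had the largest fitted differences between the genotypes, and those of Ly6c2 and its neighbour Ly6c1 because the counts of these closely related genes differed between the genotypes to unlike degrees. Each sequence is a RefSeq promoter (250 bases before to 50 after the first listed start of transcription) whose exact match was found at 1 place in GRCm39, printed 5′ to 3′ on the strand of the gene. Capitals mark matches to searched motifs. Gpnmb lies at chr6:49013202-49013501 (plus strand), Trem2 at chr17:48653179-48653478 (plus strand), Chil3 at chr3:106074831-106075130 (minus strand), Ly6c2 at chr15:74983771-74984070 (minus strand) and Ly6c1 at chr15:74920637-74920936 (minus strand). The window of Ly6c2 lies inside the annotated gene (74980003 to 74988467), at an internal start.
Gpnmb: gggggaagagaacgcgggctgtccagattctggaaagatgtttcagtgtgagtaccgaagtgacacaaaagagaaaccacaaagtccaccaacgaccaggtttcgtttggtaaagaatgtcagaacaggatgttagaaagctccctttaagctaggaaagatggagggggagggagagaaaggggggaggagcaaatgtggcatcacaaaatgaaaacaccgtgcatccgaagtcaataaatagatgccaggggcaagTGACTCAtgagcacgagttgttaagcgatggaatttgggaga
Trem2: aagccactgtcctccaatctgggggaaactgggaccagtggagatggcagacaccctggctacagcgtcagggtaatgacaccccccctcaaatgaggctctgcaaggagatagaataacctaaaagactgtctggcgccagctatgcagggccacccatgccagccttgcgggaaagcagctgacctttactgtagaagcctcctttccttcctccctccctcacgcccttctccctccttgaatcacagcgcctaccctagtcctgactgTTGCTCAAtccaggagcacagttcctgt
Chil3: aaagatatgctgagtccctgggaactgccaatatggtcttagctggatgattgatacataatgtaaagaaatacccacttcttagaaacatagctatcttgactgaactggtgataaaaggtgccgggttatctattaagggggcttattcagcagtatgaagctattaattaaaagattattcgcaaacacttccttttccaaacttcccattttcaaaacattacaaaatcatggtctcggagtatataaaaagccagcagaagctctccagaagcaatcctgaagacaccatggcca
Ly6c2: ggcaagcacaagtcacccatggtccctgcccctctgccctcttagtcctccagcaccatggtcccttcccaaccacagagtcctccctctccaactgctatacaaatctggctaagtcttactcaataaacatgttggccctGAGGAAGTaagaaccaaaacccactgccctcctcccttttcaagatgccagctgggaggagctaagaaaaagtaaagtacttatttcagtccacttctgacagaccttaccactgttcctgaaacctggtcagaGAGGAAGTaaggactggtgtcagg
Ly6c1: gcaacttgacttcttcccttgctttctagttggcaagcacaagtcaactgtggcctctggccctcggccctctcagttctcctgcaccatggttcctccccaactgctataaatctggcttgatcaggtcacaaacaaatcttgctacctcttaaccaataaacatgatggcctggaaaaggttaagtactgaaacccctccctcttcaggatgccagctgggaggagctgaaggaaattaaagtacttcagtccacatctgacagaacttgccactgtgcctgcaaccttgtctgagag

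The motifs were searched on both strands, and no matches overlapped. The PU.1 motif GAGGAAGT, named for the factor that directs myeloid development, was in the promoter of 1 of the 10 members, Ly6c2, where it occurred once before the start and again 26 bases after it, and in 3.20% of all 32851 promoters of this length. A C/EBP motif, TTGCNNAA, was in 2 members (Cd68 and Trem2) and in 10.8% of all promoters, and in Trem2 it began 22 bases after the start. The AP-1 motif TGACTCA was in 3 members (Gpnmb, Itgax and Cd68) and in 5.20% of all promoters, and in Gpnmb it began 8 bases after the start. Neither TCACATGA, the M-box bound by MITF, nor TCACGTGA, the CLEAR element of lysosomal genes, was in a member's window, where 0.986% and 0.974% of all promoters held them. The promoters of Ly6c1 and Ly6c2 aligned over 260 bases, of which 214 (82.3%) were identical.

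Between 30044812 and 43634073 estimated counts per liver were assigned to genes. Levels are given as CPM (counts per 1000000 of the TMM-scaled library size) and, where genes are compared with each other, as TPM, which also corrects for transcript length. Xpa, the repair gene by which the labels tell KO from Het, lay at 0.992 to 1.83 CPM in KO livers and 3.10 to 6.34 in Het livers. Xpa was thus lower in the group that the labels write as Xpa+/+ than in the group written as Xpa+/-. Reads on Ercc8, the mouse Csa gene, lay at 14.8 to 34 CPM in the KO group and 5.10 to 8.68 in the Het group. The summed level of 6 hepatocyte markers was 27433 to 31739.7 TPM in Het females, 18067 to 24719.5 in Het males, 28983 to 43448 in KO females and 26876 to 37482 in KO males. The mice were separate animals, and the sources used here name no batch.

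Chil3, Gpnmb, Trem2, Itgam, Lgals3 and Cd68 were higher in KO than in Het livers, by 1.74-fold in mean CPM for Cd68 up to 29.4-fold for Chil3. Ccr2 and Ly6c2, by which classical monocytes are recognised, did not pass the test, and neither did Itgax and Lyz2. For Chil3, Gpnmb, Trem2 and Itgam each of the 6 KO livers lay above each of the 6 Het livers, a separation found in 4.72% of all tested genes. The 6 called of 10 members compare with 12.2% of the 19350 tested genes called higher and 10.2% called lower. No member was called lower, 0 had an unadjusted p under 0.05 in that direction, and DESeq2 and limma on log2(TPM + 1) called 0 lower. Over the members the median log2 fold change was 1.07, and over all tested genes it was 0.018. The test was the quasi-likelihood F test of edgeR, and a gene was called when its p, adjusted over all tested genes by the Benjamini-Hochberg method, was under 0.05. Fitted differences are log2 fold changes of KO over Het, given with an approximate standard error (SE). The SE is the size of the fitted value divided by the square root of F. The prior count shrinks the fitted value but not F, so the SE of genes with few counts is rough.

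**Figure D1:**
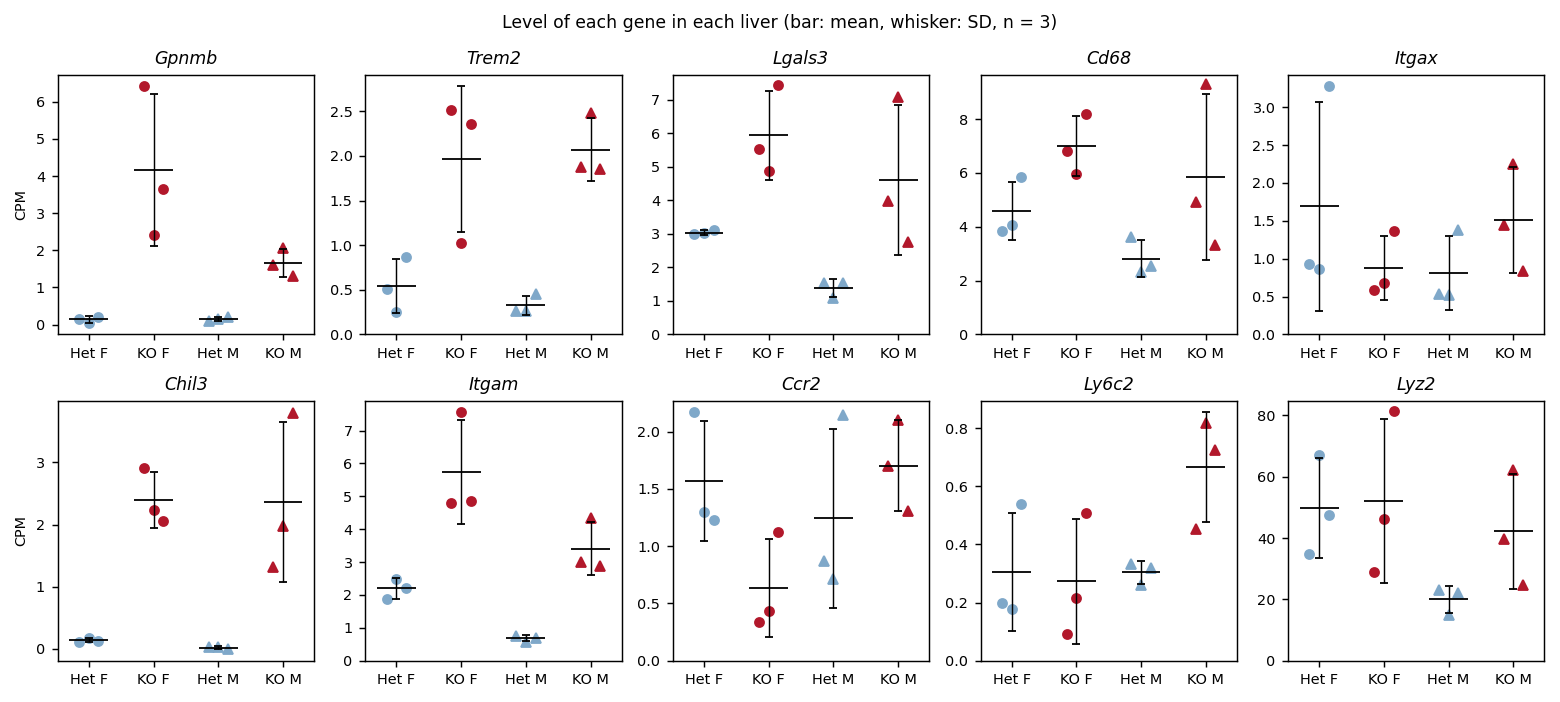
CPM of each of the 10 genes (vertical axis, own linear scale per panel) in each liver, by genotype and sex. Each point is 1 mouse (circles for females, triangles for males, blue for Het, red for KO), and bars and whiskers give the mean and SD of 3 mice. In the panels of Gpnmb, Trem2, Chil3 and Itgam every KO point lies above every Het point, and in those of Ccr2, Itgax and Lyz2 the genotypes mix.

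Gpnmb (ENSMUSG00000029816.11, chromosome 6 from 49013426 to 49047863), a transmembrane glycoprotein of phagocytes that hold lipid, was close to the limit of detection in Het livers. Its level was 0.141, 0.0510 and 0.216 CPM in the Het females, 0.10, 0.163 and 0.192 in the Het males, 6.42, 2.41 and 3.65 in the KO females and 1.61, 2.07 and 1.31 in the KO males. The lowest KO liver stood at 1.31 CPM and the highest Het liver at 0.216, so the genotypes were far apart in both sexes. The fitted log2 fold change was 3.74 (SE 0.317, adjusted p = 3.23e-05), and the mean CPM was 20.2-fold higher in KO livers. The fitted value was smaller with length-scaled counts (2.93, adjusted p = 6.48e-04) and with scaled counts (2.36, adjusted p = 0.00115). Het livers held 2 to 10 counts of Gpnmb each, against 45 to 207 in KO livers. KO_F_108 carried the highest level, 6.42 CPM, and leaving it out gave a log2 fold change of 3.51. Within males the call (log2 fold change 3.04, adjusted p = 0.00302) was lost with limma on log2(TPM + 1) (0.39, adjusted p = 0.211).

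Trem2 (ENSMUSG00000023992.15, chromosome 17 from 48653429 to 48661175) encodes the receptor through which macrophages sense lipids and apoptotic cells. It was measured at 0.507, 0.255 and 0.864 CPM in the Het females, 0.267, 0.260 and 0.448 in the Het males, 2.51, 1.02 and 2.36 in the KO females and 1.88, 2.48 and 1.86 in the KO males. The KO livers did not overlap with the Het livers, although KO_F_112, with 1.02 CPM, came close to Het_F_126, with 0.864. Trem2 rose by a log2 fold change of 2.11 (SE 0.302, adjusted p = 8.24e-04), a 4.65-fold difference of the mean CPM. Within females the call (log2 fold change 1.74, adjusted p = 0.0230) was lost without Het_F_111 (1.69, adjusted p = 0.0648), Het_F_115 (1.42, adjusted p = 0.0600) or KO_F_108 (1.52, adjusted p = 0.0796), and when the females were fitted alone (1.75, adjusted p = 0.0912).

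The signalling partners of TREM2 had smaller fitted differences. Its adaptor Tyrobp, also known as DAP12, lay at 6.23, 7.22 and 6.65 CPM in the Het females, 3.67, 2.99 and 3.20 in the Het males, 6.94, 6.75 and 9.97 in the KO females and 5.43, 10.6 and 4.5 in the KO males, which is a spread that overlaps between the genotypes. The fitted difference of Tyrobp was 0.64 (SE 0.199, adjusted p = 0.0380), and that of Syk, the kinase recruited by the adaptor, was 0.69 (SE 0.226, adjusted p = 0.0462). They were the 2 genes called among the 6 of the adaptor and signalling list (Tyrobp, Hcst, Syk, Plcg2, Inpp5d and Pik3cg), whose median log2 fold change was 0.56. DESeq2 called 3 genes of this list higher and limma on log2(TPM + 1) 0.

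Lgals3 (ENSMUSG00000050335.18, chromosome 14 from 47605208 to 47623624), which encodes galectin-3, a lectin that macrophages secrete, was 2.99, 3.01 and 3.11 CPM in the Het females, 1.53, 1.07 and 1.54 in the Het males, 5.52, 4.86 and 7.43 in the KO females and 3.96, 7.08 and 2.76 in the KO males. In females all 3 KO livers lay above all 3 Het livers, and in males as well, but KO_M_136, with 2.76 CPM, lay below the Het females. The genotype difference was 1.32 (SE 0.220, adjusted p = 0.00192), or 2.39-fold in mean CPM. Within males it passed the test (log2 fold change 1.69, adjusted p = 0.0101), though not without Het_M_125 (1.54, adjusted p = 0.0514). Within females it did not pass (log2 fold change 0.96, adjusted p = 0.0618), but was called without KO_M_122 (0.96, adjusted p = 0.0270) or KO_M_136 (0.94, adjusted p = 0.0415), males that enter the fit through its shared estimate of spread, and by DESeq2 (0.97, adjusted p = 0.0237).

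Cd68 (ENSMUSG00000018774.14, chromosome 11 from 69555037 to 69557067) encodes a glycoprotein of endosomes and lysosomes that is present in most macrophages. Its level reached 3.86, 4.06 and 5.83 CPM in the Het females, 3.60, 2.31 and 2.53 in the Het males, 6.82, 5.98 and 8.18 in the KO females and 4.94, 9.30 and 3.31 in the KO males. KO females lay above Het females, whereas KO_M_136 (3.31 CPM) fell among the Het males. The difference of 0.82 (SE 0.236, adjusted p = 0.0273) was the smallest of the called members. It no longer passed without Het_F_111 (log2 fold change 0.76, adjusted p = 0.0626), Het_F_115 (0.77, adjusted p = 0.0564), Het_M_125 (0.75, adjusted p = 0.0692), Het_M_137 (0.77, adjusted p = 0.0638) or KO_F_123 (0.75, adjusted p = 0.0543). Neither sex alone passed, with log2 fold changes of 0.60 (adjusted p = 0.249) in females and 1.04 (adjusted p = 0.0858) in males, where it was called without KO_M_136 (1.31, adjusted p = 0.0395) and by DESeq2 (1.04, adjusted p = 0.0354).

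Lipoprotein lipase and the macrophage elastase had the smallest p among other genes of lipid-associated macrophages, and Spp1 did not pass the test. Of 13 such genes (Spp1, Cd9, Cd63, Fabp4, Fabp5, Lpl, Plin2, Ctsb, Ctsd, Ctsl, Lipa, Mmp12 and Capg), 7 were called higher and 1 lower, with a median log2 fold change of 0.71. Lpl, lipoprotein lipase, rose by a log2 fold change of 4.16 (SE 0.181, adjusted p = 2.07e-07), and Mmp12, the macrophage elastase, by 2.69 (SE 0.306, adjusted p = 2.40e-04). Plin2, which coats lipid droplets and is also abundant in hepatocytes, changed by -1.59 (SE 0.291, adjusted p = 0.00389). Spp1, osteopontin, often named with Trem2 and Gpnmb, was 27.4, 36.9 and 45.3 CPM in the Het females, 27.2, 37.0 and 49.1 in the Het males, 11.7, 22.2 and 45.4 in the KO females and 40.1, 33.9 and 22.5 in the KO males, with the genotypes overlapping in both sexes and a log2 fold change of -0.35 (adjusted p = 0.439). Several of these genes are made by hepatocytes, cholangiocytes or adipocytes too.

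Chil3 (ENSMUSG00000040809.11, chromosome 3 from 106054870 to 106074880), the chitinase-like protein Ym1, is made by alternatively activated macrophages and by monocytes, and also by neutrophils and their precursors. It had the largest fitted difference of the 10 genes. Its level was 0.113, 0.179 and 0.130 CPM in the Het females, 0.0334, 0.0325 and 0 in the Het males, 2.91, 2.23 and 2.06 in the KO females and 1.31, 1.98 and 3.8 in the KO males. Every KO liver held at least 1.31 CPM and no Het liver more than 0.179. The fitted log2 fold change of 4.30 (SE 0.315, adjusted p = 9.81e-07) depends on the prior count, because the Het males held 1, 1 and 0 counts. In males the pooled counts were 257 in KO and 2 in Het livers, a ratio of 105 after scaling, with a 95% interval of 28.7 to 869 (exact binomial, counting error only). In females, where the Het livers held 4 to 7 counts, the mean CPM was 17.1-fold higher in KO livers. Chil4, its close relative on chromosome 3, held 1 count in KO_F_108 and 0 in the other livers, and none of the read-length windows of Chil3 transcripts occurred in another gene.

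Some neutrophil markers and the precursor marker Prtn3 were also called higher, and the part of such cells in the differences of Chil3 and Itgam was not tested. Of 8 neutrophil markers, 7 were tested and 3 were called higher, namely Mmp9 (log2 fold change 1.57, adjusted p = 0.0163), S100a8 (1.17, adjusted p = 0.0299) and Mmp8 (1.0, adjusted p = 0.0447), while Ly6g did not exceed 3 counts in any liver. Their summed level was 3.32 to 7.61 TPM in Het females, 1.05 to 2.90 in Het males, 5.34 to 8.10 in KO females and 3.92 to 6.32 in KO males. Within females and within males 0 of the 7 tested neutrophil markers were called. Of 9 granulocyte precursor markers only Prtn3, proteinase 3, had enough reads to be tested, and it rose by 5.90 (SE 0.390, adjusted p = 2.07e-07), a fitted value that depends on the prior count because the Het males held 3 counts in all. In males the pooled counts of Prtn3 were 878 in KO and 3 in Het livers, a ratio of 238 after scaling (95% interval 81.3 to 1158, exact binomial, counting error only). The defining precursor genes Mpo, Ctsg, Camp and Cebpe did not exceed 3 counts in any liver, and Ms4a3 was at 0 in all 12.

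Itgam (ENSMUSG00000030786.19, chromosome 7 from 127661808 to 127717753) encodes CD11b, the alpha chain that pairs with the beta chain Itgb2 on monocytes, neutrophils and newly recruited macrophages. It was found at 1.89, 2.50 and 2.20 CPM in the Het females, 0.767, 0.585 and 0.704 in the Het males, 4.8, 7.55 and 4.85 in the KO females and 3.01, 4.34 and 2.87 in the KO males. The lowest KO liver (2.87 CPM) lay just above the highest Het liver (2.50 CPM), and within each sex the gap was wider. Itgam rose by 1.79 (SE 0.181, adjusted p = 1.14e-04), or 3.17-fold in mean CPM. Its read-length windows are shared to 56.9% with the annotated gene Gm49368, which held at most 3 counts in any liver. Within females (log2 fold change 1.36, adjusted p = 0.00792) the call was lost with length-scaled counts (1.17, adjusted p = 0.0921), scaled counts (1.09, adjusted p = 0.112), limma on log2(TPM + 1) (0.43, adjusted p = 0.128) and limma on log2(TPM + 0.1) (0.97, adjusted p = 0.116).

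Itgax (ENSMUSG00000030789.10, chromosome 7 from 127728668 to 127749829), the CD11c chain of dendritic cells and lipid-laden macrophages, lies near Itgam and did not pass the test. Its level was 0.930, 0.867 and 3.28 CPM in the Het females, 0.534, 0.520 and 1.38 in the Het males, 0.589, 0.681 and 1.37 in the KO females and 1.45, 2.24 and 0.841 in the KO males. The genotypes overlapped in both sexes, and Het_F_126 held the highest level of all 12 livers. The log2 fold change was -0.029 (SE 0.443, adjusted p = 0.971). It was -0.91 (adjusted p = 0.319) in females and 0.85 (adjusted p = 0.417) in males, so neither sex passed the test. Without Het_F_126 the value for both sexes turned to 0.41 (adjusted p = 0.441).

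The shared beta chain and its activator were also called higher. Of 5 tested integrin partners and ligands, 3 were called higher: Fermt3, kindlin-3, which activates these integrins (log2 fold change 0.83, adjusted p = 0.0119), Itgb2 (0.94, adjusted p = 0.0148) and Itgal, the alpha chain of LFA-1 (0.63, adjusted p = 0.0229). Within females 0 of the 5 were called, and within males 3 were called higher. Itgb2 lay at 6.79, 8.78 and 10.3 CPM in the Het females, 4.40, 3.42 and 4.70 in the Het males, 10.7, 14.8 and 14.6 in the KO females and 7.40, 16.9 and 6.06 in the KO males. Dendritic cells, which also carry CD11c, were represented by 9 markers, of which 2 were called lower, Zbtb46 (log2 fold change -0.88, adjusted p = 7.35e-04) and Siglech (-1.47, adjusted p = 0.0343). Their summed level was 3.89 to 4.83 TPM in Het females, 2.88 to 3.48 in Het males, 2.13 to 2.92 in KO females and 2.17 to 3.06 in KO males.

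Ccr2 (ENSMUSG00000049103.15, chromosome 9 from 123901982 to 123913594), the receptor that brings classical monocytes out of the bone marrow, was not called. It was measured at 2.17, 1.30 and 1.23 CPM in the Het females, 0.867, 0.716 and 2.14 in the Het males, 0.341, 0.433 and 1.13 in the KO females and 1.70, 2.10 and 1.31 in the KO males. In females all KO livers had less Ccr2 than all Het livers, in males the genotypes overlapped, and the log2 fold changes were -1.21 (SE 0.476, adjusted p = 0.117) and 0.43 (SE 0.458, adjusted p = 0.615). Over both sexes the value was -0.39 (SE 0.325, adjusted p = 0.420). Without KO_F_123, the KO female with the highest level, Ccr2 was called lower in females (-1.88, adjusted p = 0.0316). Its ligand Ccl2 varied from 0.0334 to 3.93 CPM in Het livers, with the highest value in Het_F_115, and from 0.279 to 1.02 in KO livers. Its log2 fold change was -1.54 (adjusted p = 0.202) in females, where the genotypes overlapped, 1.92 (adjusted p = 0.214) in males, where the KO livers lay above the Het livers, and 0.19 (adjusted p = 0.784) over both sexes, and the interaction was 3.46 (adjusted p = 0.450).

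Ly6c2 (ENSMUSG00000022584.15, chromosome 15 from 74980003 to 74988467), one of a pair of genes for the Ly6C antigen of classical monocytes, did not pass the test either. Its level was 0.197, 0.179 and 0.540 CPM in the Het females, 0.334, 0.260 and 0.320 in the Het males, 0.0930, 0.217 and 0.509 in the KO females and 0.453, 0.816 and 0.725 in the KO males. The genotypes overlapped in females, where KO_F_108 held the lowest level, the KO males lay above the Het males, and the log2 fold change was 0.42 (SE 0.358, adjusted p = 0.425). Ly6c1 (ENSMUSG00000079018.11, chromosome 15 from 74915847 to 74920686), the other gene of the pair, which endothelial cells and lymphocytes also express, lay at 0.141, 0.281 and 0.0648 CPM in the Het females, 0.267, 0.0651 and 0.0320 in the Het males, 1.21, 0.712 and 0.670 in the KO females and 0.793, 0.962 and 1.22 in the KO males. Here the genotypes did not overlap, and Ly6c1 rose by 2.33 (SE 0.342, adjusted p = 9.56e-04).

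The reads of this pair can be split uncertainly by the counting, since 10.7% of the read-length windows of Ly6c2 transcripts also occur in Ly6c1. Ly6c2 held 37.9% to 90.9% of the estimated counts of both genes in Het livers (median 70.5%) and 7.44% to 46.1% in KO livers (median 37.0%). Summed, the pair lay at 0.325 to 0.605 CPM in Het livers and 0.929 to 1.94 in KO livers, without overlap. Counted as 1 gene, an alternative added after the values were seen, Ly6c rose by 1.5 on the log2 scale (adjusted p = 9.10e-04). Summed sinusoidal endothelium markers were 54.7 to 67.9 TPM in Het females, 28.5 to 44.1 in Het males, 34.2 to 37.2 in KO females and 26.3 to 45.3 in KO males, and the part of endothelial cells in the Ly6c1 difference was not tested.

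**Figure D2:**
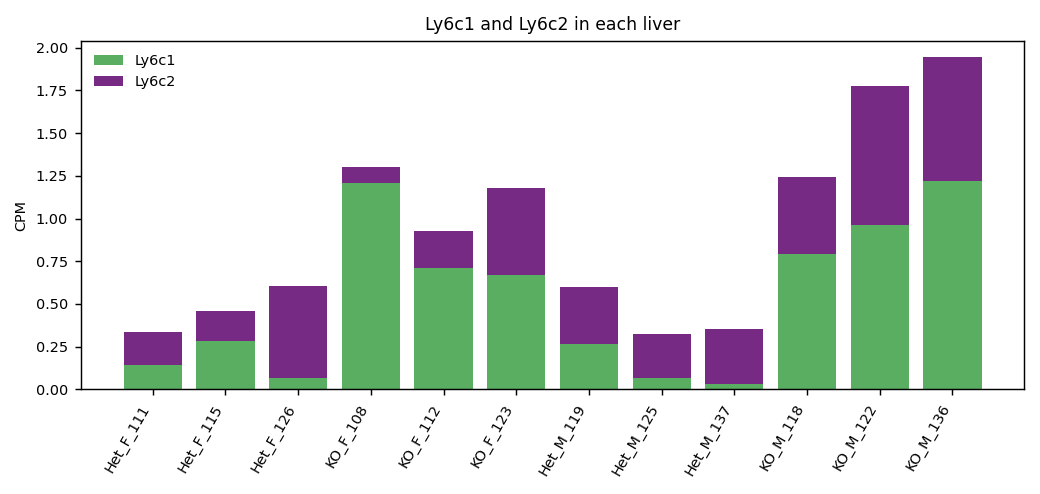
Stacked CPM of Ly6c1 (green, lower part) and Ly6c2 (purple, upper part) in each of the 12 livers, which are named by genotype, sex and mouse number. The green part is taller in every KO liver than in any Het liver, from 0.670 CPM upward against at most 0.281, while the purple part varies within each group.

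Ace and Plac8 were called higher among other monocyte genes, and the receptor chains Csf2rb and Csf2ra among the signals that recruit and sustain monocytes. Of 10 further monocyte genes (Cx3cr1, Plac8, F13a1, S100a4, Ms4a4c, Ms4a6c, Nr4a1, Spn, Treml4 and Ace), 2 were called higher (DESeq2 called 3 and limma on log2(TPM + 1) 1) and the median log2 fold change was 0.56. At an unadjusted p under 0.05, 4 of the 10 were higher, beside 19.3% of all tested genes. The called genes were Ace, angiotensin-converting enzyme, which marks nonclassical monocytes and also endothelium (log2 fold change 1.26, SE 0.171, adjusted p = 6.25e-04), and Plac8 (0.66, SE 0.199, adjusted p = 0.0343). Plac8 was called in males (1.26, adjusted p = 0.0231) and not in females (0.053, adjusted p = 0.922), with an interaction of 1.21 (adjusted p = 0.434). Of 9 genes for CCR2 ligands, colony-stimulating factors and their receptors, 6 were tested, 2 were called higher and 1 lower. The shared beta receptor chain Csf2rb changed by 1.30 (SE 0.204, adjusted p = 0.00138), the alpha chain Csf2ra by 0.78 (SE 0.217, adjusted p = 0.0241) and Csf1, the growth factor of macrophages, by -0.73 (SE 0.226, adjusted p = 0.0364). Csf1 was called lower in females (-1.53, adjusted p = 0.0158) and not in males (0.061, adjusted p = 0.934), with an interaction of 1.59 (adjusted p = 0.374). DESeq2 called 1 gene of this list lower over both sexes and limma on log2(TPM + 1) 0. Ccl12 and Csf2 did not exceed 3 counts in any liver.

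Lyz2 (ENSMUSG00000069516.9, chromosome 10 from 117111557 to 117118346), the lysozyme of monocytes, macrophages and neutrophils, was the most abundant of the 10 genes in every group. Its level was 34.9, 67.0 and 47.4 CPM in the Het females, 22.9, 15 and 22.2 in the Het males, 29.0, 46.1 and 81.4 in the KO females and 39.7, 62.1 and 24.8 in the KO males. In females the genotypes overlapped, with both the lowest and the highest level in KO livers, and KO males lay above Het males, with KO_M_136 the nearest to them. The log2 fold change was 0.57 (SE 0.290, adjusted p = 0.184), and within males it was 1.07 (adjusted p = 0.146). Lyz1, its close relative, held at most 5 counts in any liver.

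**Figure D3:**
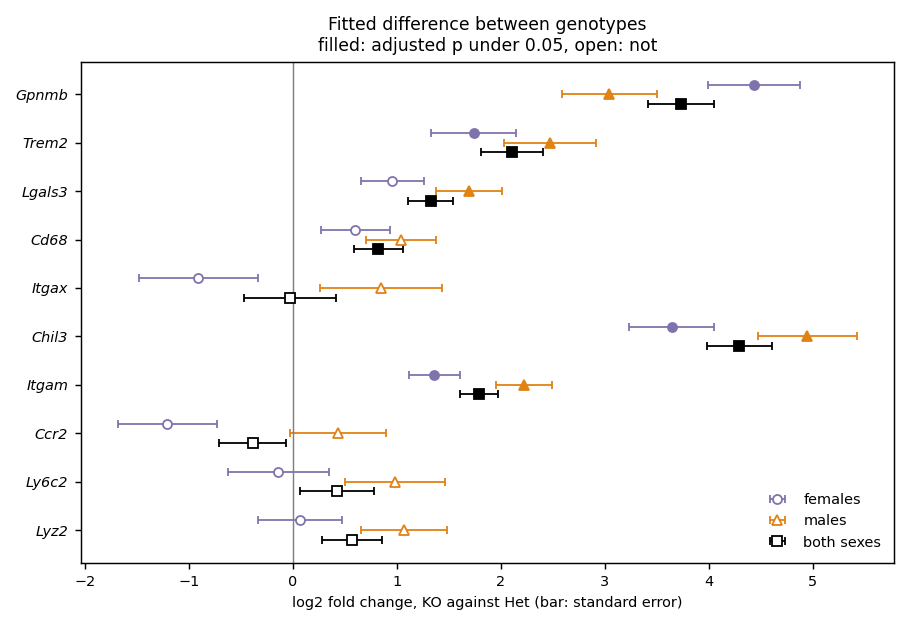
Fitted log2 fold change of KO against Het (horizontal axis) with its approximate SE for each gene, in females (purple circles), males (orange triangles) and both sexes (black squares). Filled symbols passed at an adjusted p under 0.05. Gpnmb, Trem2, Chil3 and Itgam are filled in all 3 contrasts, Lgals3 in males and in both sexes, and Cd68 for both sexes together.

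The sexes were compared within the same fit. In females 4 members were called higher (Chil3, Gpnmb, Trem2 and Itgam), where 5.94% of all tested genes were, and in males 5 were (with Lgals3), where 4.47% were. Without regard to a test, the KO livers lay wholly above the Het livers for 6 members in females (background 15.8%) and 7 in males (background 16.8%), and wholly below them for Ccr2 in females (background 14.7%). The interaction, in which the genotype difference of females is subtracted from that of males, called 0 members by edgeR (background 0.0465%), by DESeq2 and by limma on log2(TPM + 1). At an unadjusted p under 0.05 it gave 3 members, all more positive in males: Chil3 (log2 difference 1.31, SE 0.526, adjusted p = 0.486), Itgam (0.86, SE 0.343, adjusted p = 0.490) and Ccr2 (1.64, SE 0.658, adjusted p = 0.492), where 4.94% of all tested genes had such a p in this direction. Of the 10 members, 9 had a positive interaction and Gpnmb a negative one, -1.39 (SE 0.759, adjusted p = 0.591). The fold of mean CPM of Gpnmb was 30.6 in females and 11.0 in males, and that of Trem2 was 3.62 and 6.37.

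Itgam was lower in males than in females. In the sex contrast, averaged over the genotypes, it was the 1 member called (background 1.02%), with a log2 difference of -1.17 (SE 0.179, adjusted p = 0.00857). Het males held 0.686 ± 0.0923 CPM of Itgam and Het females 2.20 ± 0.306 (mean ± SD, n = 3), and KO males held 3.41 ± 0.812 against 5.74 ± 1.57 in KO females. In total 4 members had an unadjusted p under 0.05 and were lower in males, with log2 differences of -0.68 for Chil3, -1.17 for Itgam, -0.74 for Lgals3 and -0.81 for Lyz2, where 7.11% of all tested genes had such a p in this direction. The call of Itgam was lost with length-scaled counts (-0.94, adjusted p = 0.196), scaled counts (-0.75, adjusted p = 0.286), limma on log2(TPM + 1) (-0.25, adjusted p = 0.333) and limma on log2(TPM + 0.1) (-0.83, adjusted p = 0.157). Lgals3 was called as well by DESeq2 (-0.76, adjusted p = 0.0370). General macrophage markers had a median log2 sex difference of -0.60 over 15 genes. Of these edgeR called 0, 11 were lower in males at an unadjusted p under 0.05, and DESeq2 called 1 and limma on log2(TPM + 1) 0.

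Several genes shared by all macrophages rose as well, and the part of a general difference in macrophage RNA was not tested for the members. Of 15 general macrophage and leukocyte markers, 7 were called higher, where 12.2% of all tested genes were, and the median log2 fold change was 0.74. The 3 with the smallest p were Mpeg1, perforin-2 (log2 fold change 1.09, adjusted p = 6.70e-04), Ctss, cathepsin S (1.0, adjusted p = 0.00674), and C1qb, a chain of complement C1q (0.87, adjusted p = 0.0124). The summed level of the 15 markers was 127 to 177 TPM in Het females, 61 to 78.8 in Het males, 169.7 to 239 in KO females and 106 to 244 in KO males. Within females 2 of the 15 were called higher (background 5.94%), with a median log2 fold change of 0.30. Within males 4 were (background 4.47%), with a median of 1.04. Limma on log2(TPM + 1) called 0 higher in females and 4 in males. Csf1r, the receptor that macrophages need to survive, lay at 55.6, 58.4 and 65.2 CPM in the Het females, 38.9, 29.4 and 36.6 in the Het males, 55.4, 69.3 and 89.0 in the KO females and 49.9, 92.4 and 30.8 in the KO males and was not called (log2 fold change 0.49, SE 0.225, adjusted p = 0.143), and Adgre1, the F4/80 antigen, was not called either (0.43, adjusted p = 0.274). KO_M_136 held the least Csf1r and Adgre1 of the KO livers, and also the least Lgals3, Cd68 and Lyz2, and the most Chil3.

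Set against Csf1r in the same liver, 5 of the 10 genes lay higher in every KO liver than in every Het liver, where 0.879% of all tested genes did. Before this division 4 of the 10 did, and 4.72% of all tested genes. Dividing can add the spread of Csf1r to genes that do not vary with it. The 0.879% may therefore be too low a background for genes of macrophages. Gpnmb ranged from 0.0874% to 0.553% of the Csf1r CPM in Het livers and from 2.24% to 11.6% in KO livers. Trem2 ranged from 0.437% to 1.33% and from 1.47% to 6.03%. Chil3 was at most 0.306% in Het livers and at least 2.14% in KO livers. Lgals3 ranged from 3.65% to 5.38% in Het livers and from 7.01% to 9.96% in KO livers, with KO_M_136 at 8.95%. Itgam reached at most 4.28% in Het and at least 4.70% in KO livers. Cd68 overlapped, at 6.90% to 9.25% in the Het group and 8.62% to 12.3% in the KO group, as did Lyz2, Ccr2, Ly6c2 and Itgax. Csf1r was the only reference used, and its log2 fold change of 0.49 lay below the median of 0.74 of the general macrophage markers. The ratios to Csf1r are descriptions and were not tested.

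**Figure D4:**
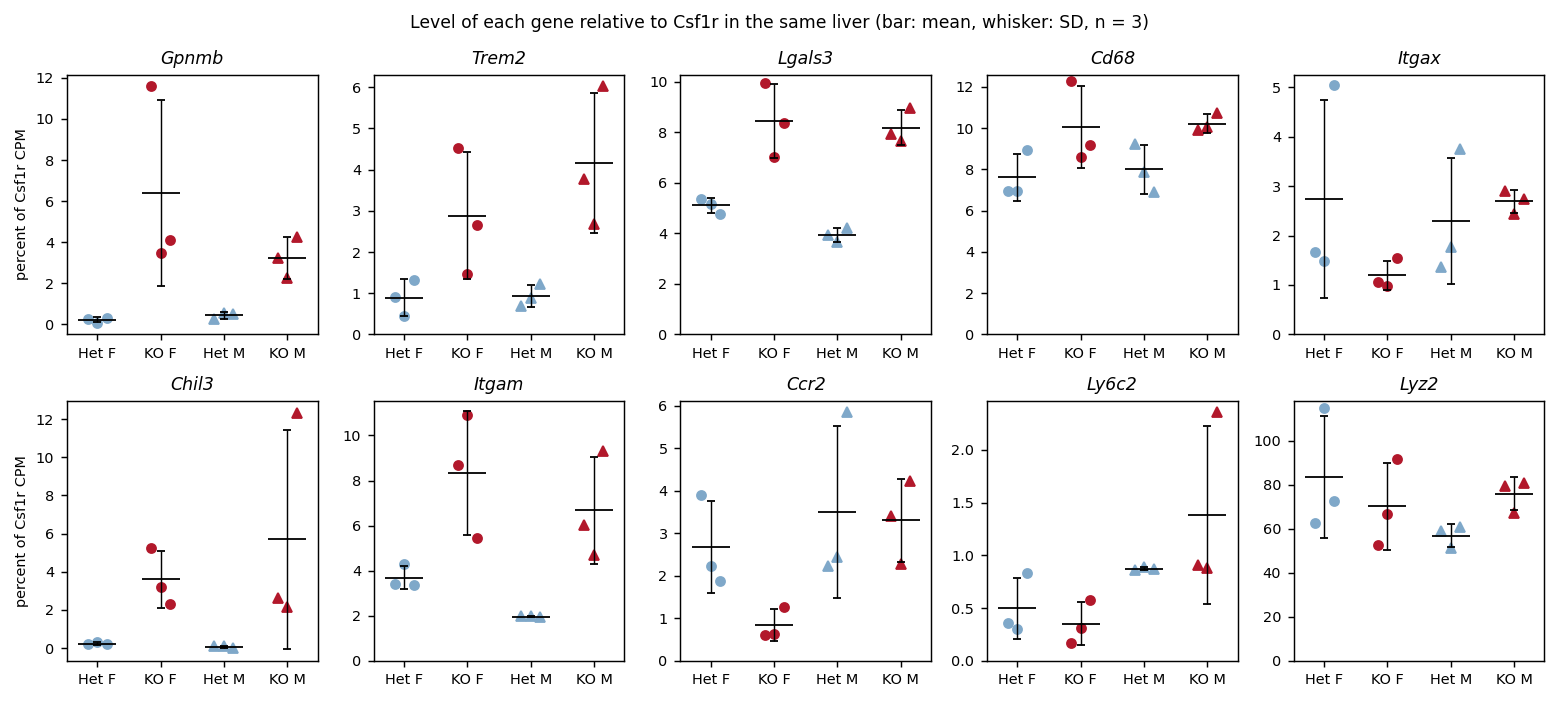
Level of each gene as a percent of the Csf1r CPM in the same liver (vertical axis, own linear scale per panel), by genotype and sex. Points are single mice (circles for females, triangles for males, blue for Het, red for KO), and bars and whiskers give the mean and SD of 3 mice. Gpnmb, Trem2, Chil3, Itgam and Lgals3 separate the genotypes on this scale, and the other 5 genes overlap.

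Kupffer cell genes differed among themselves. Of 11 markers, 3 were called higher and the median log2 fold change was 0.23. Marco, a scavenger receptor also found on other macrophages, rose by 2.98 (SE 0.571, adjusted p = 0.00618), Vsig4, a complement receptor, by 0.87 (SE 0.199, adjusted p = 0.0103) and Cd5l, a secreted scavenger protein, by 0.79 (SE 0.243, adjusted p = 0.0379). Clec4f, the lectin confined to Kupffer cells among liver macrophages, ranged from 38.3 to 90.0 CPM in the Het group and from 46.5 to 147 CPM in the KO group, a difference that was not called (0.57, SE 0.244, adjusted p = 0.118). The summed level of the Kupffer markers was 169 to 219 TPM in Het females, 147 to 183 in Het males, 218 to 266 in KO females and 143 to 247 in KO males. Complement C6 from this list, which hepatocytes also make, was higher in males in the sex contrast (2.04, SE 0.279, adjusted p = 0.00618). The list as a whole leaned the other way, with a median log2 sex difference of -0.55. At an unadjusted p under 0.05, 7 of the 11 markers were lower in males, beside 7.11% of all tested genes. Of the list edgeR called 0 lower in males, DESeq2 2 and limma on log2(TPM + 1) 1.

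Of 14 transcription factors of myeloid cells, 1 was called higher and 4 lower. The gene called higher was Spi1, which encodes PU.1 (log2 fold change 0.88, SE 0.257, adjusted p = 0.0296), with 2.48, 2.45 and 4.45 CPM in the Het females, 2.0, 1.43 and 2.08 in the Het males, 3.97, 4.12 and 6.86 in the KO females and 3.60, 6.03 and 2.35 in the KO males. The lower ones with the smallest p were Cebpa (-1.10, adjusted p = 5.86e-04), Nr1h3, the liver X receptor alpha (-0.49, adjusted p = 0.00199), and Maf (-0.39, adjusted p = 0.00984), of which Cebpa and Nr1h3 are also strongly expressed in hepatocytes.

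In the lists of lymphoid, stellate, endothelial, hepatocyte and erythroid markers the genes called by edgeR were lower in KO livers. Among 10 markers of T, B and NK cells, Ncr1, an NK cell receptor, was called lower (log2 fold change -0.70, adjusted p = 0.0465), and the list's median log2 fold change was -0.42. This was 1 gene of 10, beside 10.2% of all tested genes called lower, and DESeq2 and limma on log2(TPM + 1) called 0 of this list lower. Stellate cell markers gave 2 genes called lower of 8, Reln (-1.75, adjusted p = 1.88e-04) and Lrat (-1.89, adjusted p = 2.38e-04), and sinusoidal endothelium 2 of 6, Kdr (-0.99, adjusted p = 0.00330) and Clec4g (-0.83, adjusted p = 0.00490). Of 6 hepatocyte markers Ttr was called lower (-0.81, adjusted p = 0.00422), while Alb, albumin (0.57, adjusted p = 0.0620), and Cps1, a urea cycle enzyme (0.39, adjusted p = 0.108), were higher at an unadjusted p under 0.05. Alb was called higher by DESeq2 and by limma on log2(TPM + 1), and the list's median log2 fold change was 0.051. Of the erythroid markers Alas2 was called lower (-1.41, adjusted p = 7.40e-04), and it was higher in males in the sex contrast (1.60, adjusted p = 0.00244). The 6 tested cholangiocyte markers gave 0 calls by edgeR, by DESeq2 and by limma on log2(TPM + 1), and 0 at an unadjusted p under 0.05, the smallest p being that of Krt7 (0.39, adjusted p = 0.377).

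**Figure D5:**
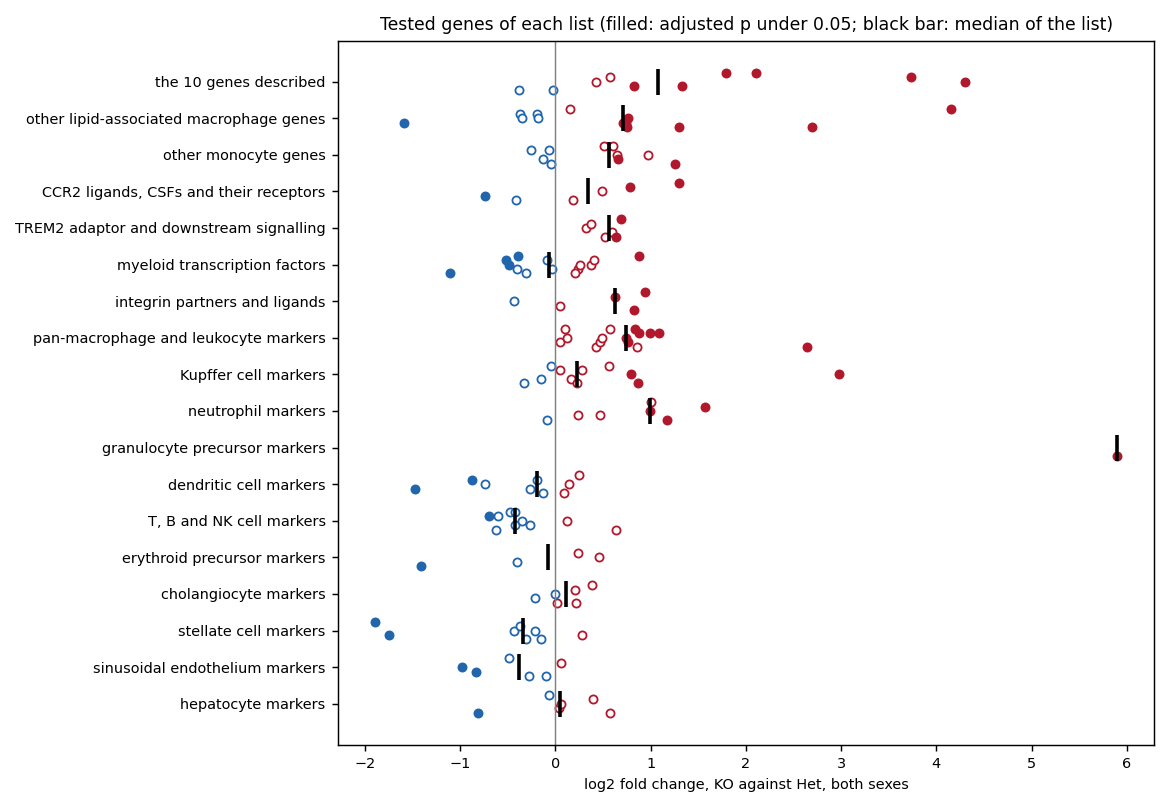
Log2 fold change of KO against Het over both sexes (horizontal axis) for every tested gene of each list (rows), with filled symbols for an adjusted p under 0.05, red above and blue below 0, and a black bar at the median of the list. The median of the 10 genes is 1.07, that of the other lipid-associated macrophage genes 0.71, that of the general macrophage markers 0.74 and that of the Kupffer cell markers 0.23.

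The order of the genes by level was compared in TPM. In Het livers the medians ran from Lyz2 (18.3 TPM) over Cd68 (2.54), Lgals3 (1.77), Ly6c2 (0.310), Ccr2 (0.275), Itgax (0.272), Itgam (0.244), Trem2 (0.200) and Gpnmb (0.0587) to Chil3 (0.0391). Only Lyz2 stood clear of the next gene, with 8.44 to 44.7 TPM against 1.40 to 4.11 for Cd68, and the ranges of all other neighbours overlapped. In KO livers Trem2 had moved from rank 8 to rank 4 with a median of 1.41 TPM, Chil3 from rank 10 to rank 5 with 1.08, and Itgam from rank 7 to rank 6 with 0.835. Ly6c2 (0.550), Gpnmb (0.477), Ccr2 (0.284) and Itgax (0.211) followed. The top 3 genes kept their places, with medians of 25.3 for Lyz2, 4.49 for Cd68 and 4.13 for Lgals3. Lgals3 (2.05 to 5.61 TPM) stayed above Trem2 (0.680 to 1.92 TPM) in every comparison of KO livers, and from Trem2 downward neighbouring ranges overlapped.

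Likeness of pattern was described by the root mean square difference of z scores of log2 CPM over the 12 livers, which is 0 for genes of the same shape, among 13418 genes with a mean CPM of at least 1. Closest to Lgals3 were Lgmn (0.184) and Cd300a (0.193), closest to Cd68 Lgmn (0.206) and C1qc (0.261), and closest to Lyz2 Adgre1 (0.253) and Cd48 (0.303). The genes nearest to Gpnmb were Clcf1 (0.231) and Sesn1 (0.234), to Trem2 Glg1 (0.304) and Ifi27l2b (0.305), to Chil3 Sptan1 (0.199) and Ano10 (0.249), and to Itgam Minpp1 (0.282) and AB124611 (0.293). Itgax was nearest to Rasgrp1 (0.397) and Emp3 (0.501), Ccr2 to Maged2 (0.406) and Rpia (0.423), and Ly6c2 to Ifitm3 (0.398) and Cnp (0.454). Among the members themselves Lgals3 and Cd68 were the closest pair (0.345), followed by Itgam and Lgals3 (0.369) and by Gpnmb and Trem2 (0.398), and Ccr2 and Gpnmb were the farthest apart (1.66). The points share libraries and genotype groups, so these values are descriptions.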

How the data were processed

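Ribosomal RNA was depleted from total liver RNA, stranded libraries were sequenced as paired reads, and the authors ran nf-core/rnaseq, with STAR 2.7.9a on GRCm39 and Salmon 1.10.1 on GENCODE M34 genes. The authors deposited TPM, estimated counts for each gene, and 2 more count tables rescaled from TPM (scaled and length-scaled estimated counts). Mice were grouped by genotype and sex from the labels, and each mouse carries the name of its group and its own number. No column of another sample was present.

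Estimated counts (12.0% of the values not whole) were rounded and analysed in R 4.3.3 with edgeR 4.0.16, using its robust quasi-likelihood F test, a prior count of 2 and genotype, sex and their interaction as factors (a mean for each of 4 groups), as in the paper's methods. Rounding and TMM scaling were choices made here. Genes with at least 5 reads, scaled to the median library, in at least 3 samples were kept. The genotype contrast averages KO minus Het over the sexes, the sex contrast averages males minus females over the genotypes, and the interaction subtracts the genotype difference of females from that of males. P-values were adjusted by Benjamini-Hochberg over all tested genes and called under 0.05. The model was tested on simulated data, which used the same spread for every gene and placed changes only in genes above a minimum mean count. Changes from levels as low as those of Gpnmb and Chil3 in Het livers were not covered. The deposited TPM served for levels between genes and, with the other tables, DESeq2 1.42.0 and limma 3.58.1, for alternatives. Other alternatives were no rounding, other filters and scalings, a model without interaction, the older quasi-likelihood method, no robust estimation, 1 sex alone, and leaving out each mouse. Libraries held 30044812 to 43634073 counts, so levels under 0.1 CPM rest on a few counts, and intervals cover counting error only. Coordinates come from the GENCODE M39 annotation and promoters from RefSeq. Transcript windows of the read length were compared between genes.

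Named were the members, their near-identical copies, Itgb2, Tyrobp, Spi1, Csf1r, Adgre1, Ccl2, Spp1, Clec4f, Ercc8 and Xpa, up to 3 called genes of smallest p per list (1 if none was called), the 2 nearest patterns per member, and list genes called for sex. Gm49368, Alb, Cps1 and the undetected marker genes were named after their values were seen. The members and lists were chosen with earlier results of these data known. Of the monocyte list, 1 gene is not reported here, and the list was summarised without it.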

Additional observations from a re-analysis of the deposited data

Results flagged for a closer look

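Itgax stood at 3.28 CPM in Het_F_126, far from the other Het livers, the next of which held 1.38 CPM. The gap was 0.691 of the whole range of the 6 Het livers, above the critical value of 0.625 for 6 samples. The 10 genes were looked at in both genotypes, 20 groups in all, and chance flags about 1 in 20 groups. The fitted log2 fold change of Itgax was -0.029 with this liver and 0.41 without it, and neither passed the test.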

How the results depend on the processing

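With both sexes together, the 6 members called higher stayed 6 under all other tables, filters, scalings, tools and models except a minimum of 10 reads required in each library, which tests 6 members and called 3 (1 in the female and 2 in the male contrast), and the count of Ly6c1 and Ly6c2 as 1 gene, which gave 7. The added call was that merged gene, of which Ly6c1 was called on its own and the member Ly6c2 was not. Leaving out 1 mouse at a time gave 5 to 6 members for both sexes, 3 to 5 in females, 4 to 6 in males, 0 to 0 for the interaction and 1 to 2 for sex, with Lgals3 joining Itgam without KO_M_122. The sex contrast called 0 members with length-scaled counts, scaled counts, limma on log2(TPM + 1) and limma on log2(TPM + 0.1), and 2 with DESeq2. The causes were not tested. With both sexes together, Chil3, Gpnmb, Trem2, Itgam and Lgals3 kept their direction and their call under every alternative in which they were tested, with log2 fold changes from 1.08 to 5.43 for Chil3, the lowest on the log2(TPM + 1) scale, where the differences of low genes come out too small. Itgax changed sign without Het_F_126 (0.41), Het_M_137 (0.25), KO_F_108 (0.064), KO_F_112 (0.044) or KO_M_136 (0.10), a range of -0.26 to 0.41 over all mice left out. Het livers held at most 10 counts of Gpnmb and 7 of Chil3, which limits how well the size of these folds is known. For Gpnmb the log2 fold change ran from 0.61 on the log2(TPM + 1) scale to 4.18 with DESeq2. It was 2.93 with length-scaled and 2.36 with scaled counts. No paired analysis was possible because the sources used here do not give the litter of each mouse and the mouse numbers differ between all groups, so litters shared between KO and Het mice could not be taken into account.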
